A study of Papio hamadryas with 12 samples.

Results

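Many genes give rise to more than 1 mRNA, because transcription can start at different promoters, exons can be spliced in different combinations and transcripts can end at different polyadenylation sites. Alternative splicing is used widely in the brain, where neurons and glia express different isoforms of genes for channels, receptors, adhesion molecules and the cytoskeleton. A bead-array probe placed in sequence that all known isoforms of a gene contain is meant to read their sum. It is then meant to follow the output of the gene and to be blind to a switch between its isoforms. Illumina marks such a target with the suffix -A, a target for 1 particular isoform with -I and a target for a gene with a single known transcript with -S.

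The targets described here are the -A targets with a GI identifier that were detected at a p under 0.01 on all 12 arrays of the series. They numbered 798 of 2182 -A targets, and of 47296 rows on the array. The members were chosen by their detection p-values alone, which are high for dim targets, so level and detection are given below as descriptions without a test. The arrays' condition and sex labels played no part in the choice. The files used here do not pair identifiers with gene names, so members are given by identifier, and neither a role nor a pathway can be assigned to them. For the same reason the frontal cortex label was not checked against markers of neurons, glia, vessels or blood.

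The fetuses were baboons (Papio hamadryas) of gestational day 165, and RNA of each one's frontal cortex was hybridised to 1 array. The sources used here do not name the organism that the array was designed for. Whether its probes and known isoforms match baboon transcripts was not checked, so an undetected target need not mean an absent transcript. In 6 pregnancies the mother was nutrient restricted, a model of intrauterine growth restriction, and 6 pregnancies were controls. Each group held 3 female and 3 male fetuses. The labels used here do not give the extent or timing of the restriction, and they number the arrays so that all controls precede all restricted animals, so an effect of array number and of condition cannot be told apart. Between 26.6% and 28.5% of all rows were detected at a p under 0.05 on each array, and the mean signal ranged from 237 to 390.7. The array of control 1 stood apart, with the lowest signals and a set of undetected targets that every other array detected. Results are therefore also given without that array where they moved. With 6 arrays a group, precision is limited by their number. Cortex is a mixture of cells, so fewer cells of a type and less RNA per cell cannot be told apart.

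The -A targets fell mostly into those detected in every fetus and those detected in none. Of the 2182 targets, 798 (36.6%) were detected on all 12 arrays, 1042 (47.8%) on no array and 342 (15.7%) on 1 to 11 arrays. Under the same rule 5481 of 21002 GI targets with the suffix -S (26.1%) and 328 of 2914 with the suffix -I (11.3%) were detected throughout. The 3 classes are different probes, so these shares compare target sets and not transcript levels. Whether -A and -I targets stand for the same genes could not be checked without gene names. The class of -A targets had the largest share detected on all arrays and the smallest share detected on none, which was 61.1% for -S and 77.8% for -I targets.

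**Figure D1:**
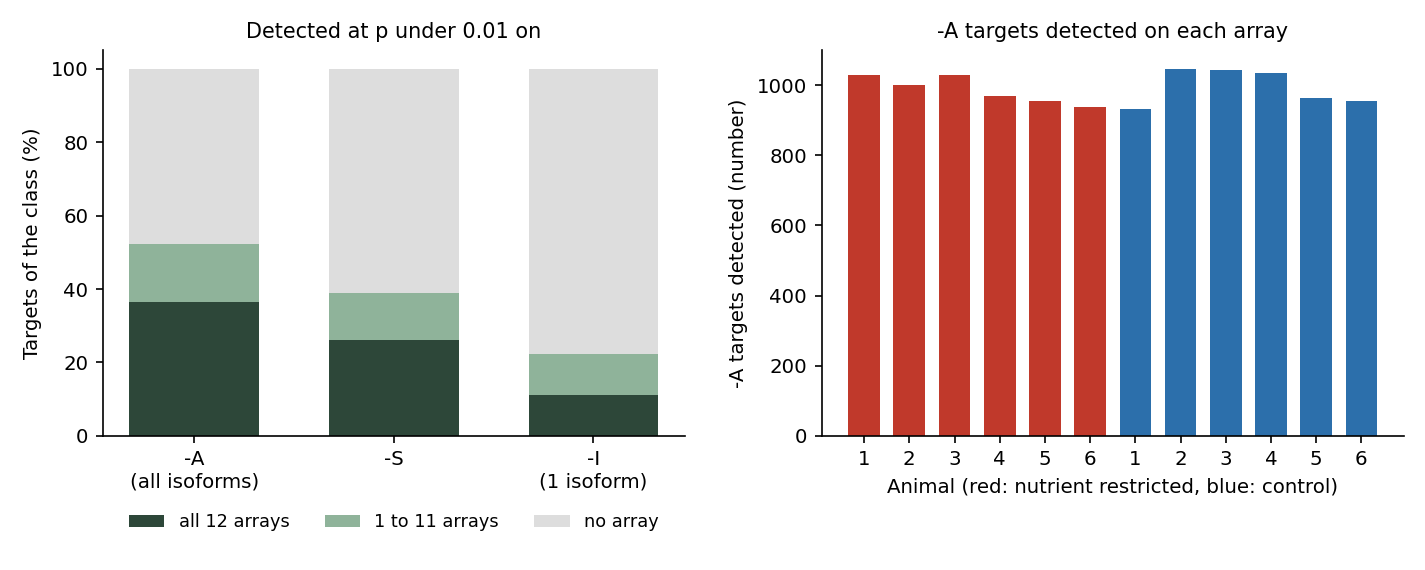
Left, the share of GI targets of each suffix (percent) detected at p under 0.01 on all 12 arrays, on 1 to 11 arrays or on none, with 36.6% of -A, 26.1% of -S and 11.3% of -I targets detected on all. Right, the number of the 2182 -A targets detected on the array of each animal, between 938 and 1029 in nutrient restricted (red) and between 933 and 1047 in control animals (blue).

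The number of -A targets detected per array overlapped between the groups. It was 986.5 ± 38.8 in the nutrient restricted and 996.3 ± 51.2 in the control group (mean ± SD, n = 6 each). Counts in the restricted animals were 1028, 1002, 1029, 968, 954 and 938. Those in the controls were 933, 1047, 1043, 1036, 964 and 955. The lowest count was that of control 1.

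A further 88 -A targets were detected on 11 of the 12 arrays and so missed membership by 1 animal. Restricted animal 6 was the animal missed for 29 of them and control 1 for 38. No other animal accounted for more than 9. The kind of miss differed between these 2 arrays. On restricted animal 6 the median detection p of the missed targets was 0.0152, just past the limit, and none had a p over 0.5. Their median signal there was 157, against 230 on the other arrays. On control 1, 23 of the 38 had a p over 0.5, with a median p of 0.985 over all 38. Their median signal was 38.8 there, against 471 on the other arrays. Targets lost on control 1 are therefore not among the members, and the member count would be 836 without that array.

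At the limit itself, the 5 members with the highest detection p had a p of 0.00989 on their worst array, and mean log2 levels between 6.74 and 7.77. The 5 -A targets just outside had a p of 0.0105 on their worst array and mean log2 levels between 7.18 and 8.18. A detection p of 0 on all 12 arrays was recorded for 328 members, and 173 members had a highest p over 0.005.

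Levels are log2 signals after background correction and quantile normalisation, a scale on which a difference of 1 is a 2-fold difference. The members spanned levels from 6.74 to 15.39, with a median of 9.14 and quartiles of 8.13 and 10.32. The 5474 -S targets tested under the same rule had a median of 9.01 and quartiles of 8.04 and 10.29. All 13244 targets of the array that entered the statistical fit, under a looser detection rule, had a median of 7.42.

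The member with the highest level was GI_34577082-A. Its log2 level was 15.48, 15.33, 15.36, 15.36, 15.38 and 15.48 in the restricted animals, against 15.20, 15.61, 15.40, 15.31, 15.36 and 15.41 in the controls. The groups overlapped throughout, and the difference was 0.02 (SE 0.09). Its scanner signal was between 40068 and 49063 in the restricted and between 27152 and 54224 in the control animals, the lowest again on control 1. Next in level stood GI_33469925-A, with 14.39, 14.71, 14.39, 14.50, 14.71 and 14.76 in restricted and 14.06, 14.55, 14.33, 14.58, 14.44 and 14.42 in control animals. Restricted animals 2, 5 and 6, all female, lay above every control, and the other 3 lay among them. Restricted minus control was 0.18 (SE 0.12), with 0.16 in males and 0.20 in females. Female minus male was 0.28 (SE 0.10), and 5 females lay above every male.

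Before normalisation the median signal of the members was 658 ± 73.2 in restricted and 618 ± 115 in control animals (mean ± SD, n = 6 each). Control 1 had the lowest median signal, 422, and every other animal lay between 575 and 768. Quantile normalisation gives every array the same distribution over all its targets, which largely fixes the members' median on each array. After it, the median deviation of an animal's members from the mean of the other 11 animals was between -0.02 and 0.03 in the restricted and between 0.0009 and 0.02 in the control group.

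**Figure D2:**
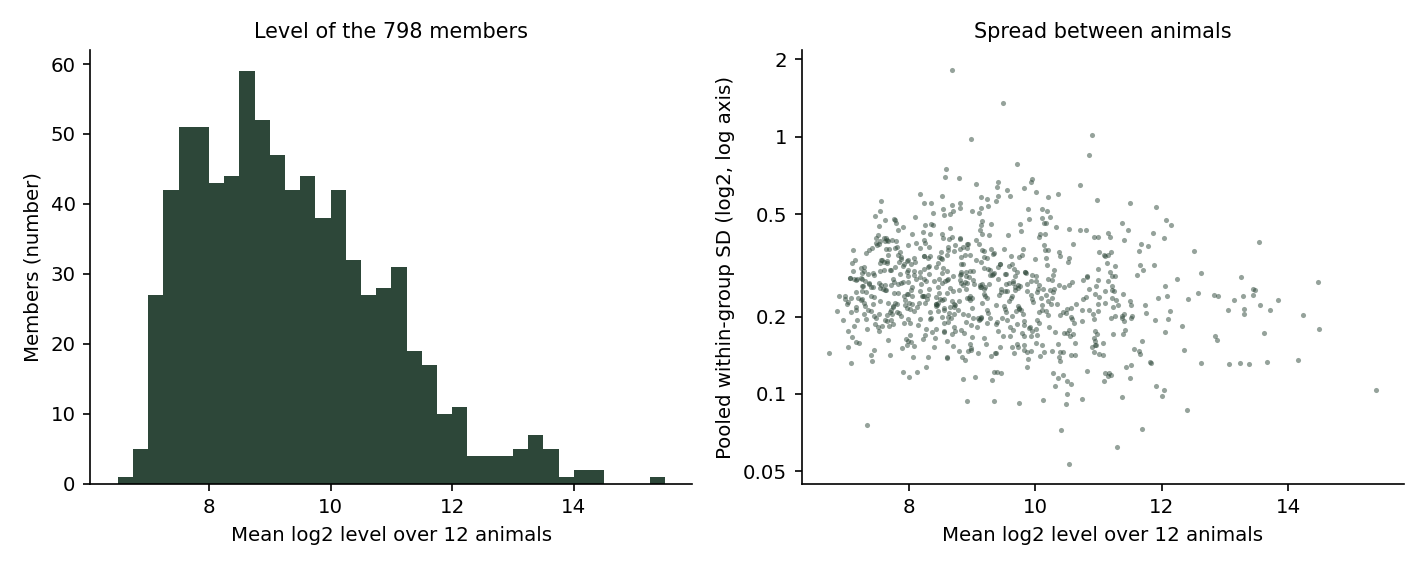
Left, the number of members by mean log2 level over the 12 animals, with a median of 9.14. Right, the pooled within-group SD of each member (log2 units, log axis) against its mean log2 level, with a median SD of 0.25 and 2 members at 1.35 and 1.82 above the rest.

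Most members differed little between fetuses of 1 group. The within-group standard deviation, pooled over both groups, had a median of 0.25 on the log2 scale, with quartiles of 0.19 and 0.33. The -S targets under the same rule also had a median of 0.25 and quartiles of 0.19 and 0.33. Over all 12 animals, 521 members (65.3%) stayed within a 2-fold range, against 65% of the -S targets. Spread was slightly smaller at high levels. In the brightest of 5 groups of members by level the median SD was 0.22, against 0.26 in the dimmest.

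Members were somewhat more variable among restricted than among control animals, but this rested on 1 animal. The median SD was 0.25 in the restricted and 0.23 in the control group, and 484 members (60.7%) had the larger SD in the restricted group. That share was 57.2% for the -S targets and 51.8% for all targets tested. All targets tested did not have to be detected on control 1, so their share is not a like comparison. Without restricted animal 6 the members' share was 48%, and the median SD was 0.22 in the restricted and 0.23 in the control group. Without control 1 it was 70.4% for the members, 69.8% for the -S targets and 65.2% for all targets tested. With equal array medians in place of quantile normalisation it was 47.1%, so the direction turned. On the authors' processed values it was 57.3%, so the direction was kept.

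A range of over 4-fold across the 12 animals was measured for 21 members (2.63%), against 2.32% of the -S targets and 5.38% of all targets tested. The looser rule for all targets tested did not require detection on control 1. The animal farthest from the median was a restricted animal for 18 of the 21 and a control for 3. This split was not taken for the -S or other targets, so it is not read as particular to the members. The member rule also left out the -A targets missed on control 1 alone, which numbered 38. Control 1 could have been farthest for such targets, so the split is not read as an effect of condition. Restricted animal 5 was farthest for 9 members, lying below the others in 6 and above in 3. Restricted animal 6 was farthest for 5, below in 4 and above in 1. The count of 21 members became 14 without restricted animal 5, 16 without restricted animal 6 and 14 without control 1. It was 35 after scaling to equal medians, with 17 of the 21 among them, and 30 on the authors' processed values, with all 21 among them.

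The largest spread was that of GI_5729930-A, whose level was low in some fetuses of each group and high in others. Its log2 level was 6.95, 6.81, 10.62, 7.42, 10.23 and 11.02 in the restricted animals. In the controls it was 7.06, 7.56, 11.22, 7.10, 9.55 and 8.73. Both groups held animals near 7 and animals above 9.5, and each level was found in both sexes. The difference between the groups was 0.31 with a 95% interval from -1.62 to 2.23, so the spread among animals far exceeded it.

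GI_14916496-A had the next largest spread. Its log2 level was 10.80, 9.66, 10.44, 10.28, 6.94 and 10.82 in the restricted animals, against 8.65, 10.21, 8.90, 8.97, 10.82 and 7.40 in the controls. Restricted animal 5 lay far below the other 5 of its group, and the controls were spread over the whole range. The difference between the groups was 0.67 (95% interval -0.77 to 2.10). The restricted males, at 10.80, 10.44 and 10.28, lay above the control males, at 8.65, 8.90 and 7.40, while the groups overlapped in females. Restricted minus control was 2.19 (SE 0.80, limma adjusted p = 0.867) in males and -0.86 (SE 0.80, limma adjusted p = 0.886) in females. The difference of both effects was -3.05 (95% interval -5.53 to -0.58), with a limma adjusted p of 0.999.

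Along the leading axis on which members varied together, animals of both conditions stood at the same end. The first principal component of the 798 members held 28.5% of their variance. Restricted animal 3 (score 8.46) and controls 3 and 5 (6.25 and 5.40) stood at one end, control 1 (-8.43) at the other, and the remaining 8 animals between -3.31 and 1.36. Without control 1 the first component held 27% and the same 3 animals stood together, at 7.76 for the restricted animal and 6.35 and 5.92 for the controls. On the second component (19.9%) the restricted animals ranged from -4.88 (animal 6) to 8.56 (animal 5), and the controls from -4.48 to -0.24, with restricted animals 2, 3, 4 and 5 above every control, animal 1 among the controls and animal 6 below them. On the array of control 1 the SD of the members' deviations from the other animals was 0.43, and it was 0.43 on restricted animal 5 and 0.42 on restricted animal 6, against 0.22 to 0.36 on the other arrays.

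The comparison of the conditions asked whether the summed output of multi-isoform genes in the frontal cortex differed in fetuses of nutrient restricted pregnancies. No member passed an adjusted p under 0.05 in limma, in either direction (smallest adjusted p among members 0.296), and neither did any other target tested (0%). At an unadjusted p under 0.05, limma placed 36 members higher and 44 lower in the restricted group, 80 in all (10%). Over all 13244 targets tested this share was 9.48%, with 4.18% higher and 5.31% lower, so the members stood near the background. For the -S targets it was 10.5%. The 80 members differed by 0.20 to 0.75 on the log2 scale in size, and their counts were 63 higher and 60 lower without restricted animal 6 and 22 higher and 31 lower without restricted animal 5. Without control 1 they were 40 and 42, with 58 of the 80 members among them. Shares over all targets tested are not given for these alternatives, so the counts describe the members only.

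Measured differences were small for nearly all members. The median difference, restricted minus control, was -0.02, against -0.004 for all targets tested, and 95% of the members lay between -0.41 and 0.41. A positive difference was measured for 376 members and a negative one for 422. No member differed by more than 2-fold, and of the 5474 -S targets 1 was higher and 1 lower by more than that. Over all targets tested, which passed a looser detection rule, 0.476% were higher and 0.0302% lower by more than 2-fold. Over 1.5-fold, 7 of the 798 members were higher and 2 lower, where 1.79% of all targets tested were higher and 0.634% lower. Of the 5474 -S targets, 17 were higher and 20 lower by over 1.5-fold. Without control 1, 5 members were over 1.5-fold higher and 1 lower, with 4 and 1 of the same members. For 777 members (97.4%) the 95% confidence interval lay within 2-fold in both directions, and for 585 (73.3%) within 1.5-fold. The balance between higher and lower members moved with the scaling. After scaling to equal medians the median difference was -0.13, with 8 members above and 81 below the controls at an unadjusted p under 0.05. On the authors' processed values it was -0.12, with 12 higher and 81 lower. The -S targets moved alike, to -0.12 and -0.11, while the median of all targets tested was -0.08 and -0.07.

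Among members of different brightness the share at an unadjusted p under 0.05 was highest at the dim end. In the dimmest of 5 groups of members by level, 11 were higher and 13 lower (15% of 160), and in the brightest 7 were higher and 4 lower (6.88% of 160). The -S targets of the same level ranges gave 10.4% and 11%. The difference between these shares was not tested.

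The levels of the restricted and control animals did not overlap for 5 members (0.627%), 2 above and 3 below, where 0.521% of all targets tested did not overlap. The 4 members described next are among them, and were picked as the 2 with the smallest p in each direction, so their values are a description of members chosen for a small p.

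GI_22547113-A had the smallest p of all members, and was a dim one, 717th in level of the 798. Its log2 level was 7.19, 7.13, 7.48, 7.27, 7.0 and 7.15 in the restricted animals, against 8.10, 8.0, 7.68, 7.84, 7.62 and 7.98 in the controls. The highest restricted animal, number 3, lay 0.15 below the lowest control, number 5. The difference was -0.67 (SE 0.11, a 1.59-fold lower level, limma adjusted p = 0.296). It was -0.61 in males and -0.73 in females, and -0.49 in all animals without background correction. Before normalisation the scanner signals overlapped, at 202 to 274 in the restricted and 222 to 338 in the control animals. The detection p in the restricted animals was between 0.00396 and 0.00725, near the limit of 0.01.

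GI_26787963-A was another of the 3 members lower in every restricted animal than in every control. It measured 8.02, 7.84, 7.74, 7.60, 7.85 and 7.76 in the restricted animals, against 8.17, 8.38, 8.29, 8.16, 8.17 and 8.20 in the controls. The controls lay within 0.22 of each other and above every restricted animal. Before normalisation the scanner signals overlapped, at 243 to 348 in the restricted and 230 to 433 in the control animals. The difference was -0.42 (SE 0.09, limma adjusted p = 0.475).

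GI_18104994-A lay higher in every restricted animal than in any control. The restricted animals measured 8.23, 9.48, 8.21, 8.93, 8.99 and 8.34 on the log2 scale, and the controls 7.80, 8.01, 7.91, 8.07, 8.06 and 7.88. Animals 2, 4 and 5 of the restricted group stood well above the controls, while 1, 3 and 6 lay just over the highest of them. The difference was 0.74 (SE 0.20, a 1.67-fold higher level, limma adjusted p = 0.475), with an SD of 0.52 in the restricted and 0.11 in the control group.

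GI_32967598-A was a bright member, 89th in level of the 798. Its log2 level was 11.30, 11.47, 11.35, 11.73, 11.98 and 11.38 in the restricted animals, against 10.75, 11.21, 11.18, 11.19, 10.92 and 10.91 in the controls. The gap between the groups was narrow, 11.30 in the lowest restricted animal against 11.21 in the highest control. Before normalisation the scanner signals overlapped, at 2514 to 4390 in the restricted and 1208 to 2879 in the control animals. The difference was 0.51 (SE 0.14, limma adjusted p = 0.475), and was 0.52 in males and 0.50 in females. After scaling to equal medians, and on the authors' processed values, it was 0.38. When 1 animal was left out, the difference lay between 0.42 and 0.56 for GI_32967598-A and between 0.59 and 0.84 for GI_18104994-A. It lay between -0.47 and -0.38 for GI_26787963-A and between -0.72 and -0.62 for GI_22547113-A.

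**Figure D3:**
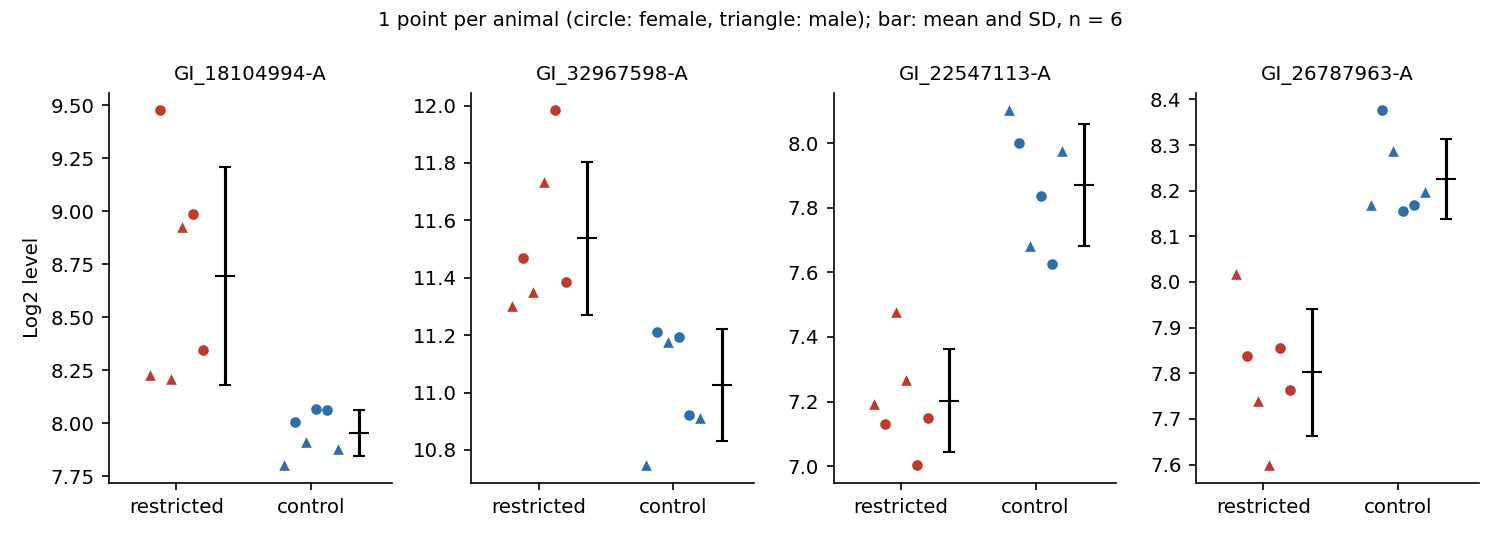
Log2 level of the 4 members with the smallest p per direction, 1 point per animal (circles female, triangles male), nutrient restricted on the left in red and control on the right in blue; bars give the mean and SD (n = 6). The groups do not overlap in any panel, while none of the 4 passed an adjusted p under 0.05 (smallest 0.296).

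**Figure D4:**
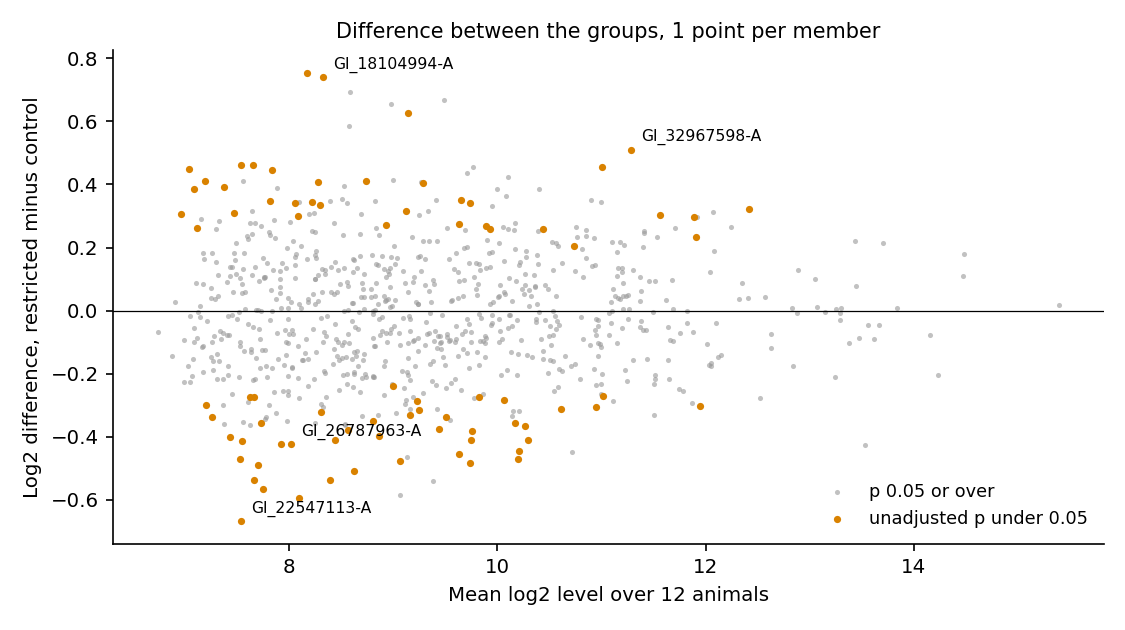
Log2 difference, restricted minus control, of each of the 798 members against its mean log2 level, with the 80 at an unadjusted p under 0.05 in orange. The points scatter about 0 at all levels, and none reaches a difference of 1 in either direction.

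Within each sex the comparison had 3 animals per group, with the spread estimated over all 12. In males no member passed an adjusted p under 0.05 in limma (smallest adjusted p = 0.867). At an unadjusted p under 0.05, 13 members were higher and 26 lower in restricted males (4.89%, where all targets tested gave 4.61%, 2% higher and 2.61% lower). Leaving out 1 animal gave 38 higher without control 3, 8 without control 4 and 7 without restricted animal 4. It gave 51 lower without control 3, 17 without control 6, 12 without restricted animal 3, 10 without restricted animal 4 and 7 without control 1. In females the counts were 26 higher and 18 lower (5.51%, where all targets tested gave 6.19%, 3.57% higher and 2.62% lower), with a smallest limma adjusted p of 0.404 and none under 0.05. Leaving out 1 animal gave 43 higher without restricted animal 6, 16 without control 4 and 15 without restricted animal 5. It gave 46 lower without restricted animal 6, 34 without restricted animal 2, 11 without control 4 and 9 without control 2. Equal medians gave 4 higher and 97 lower in restricted females and 9 and 12 in restricted males. The authors' processed values gave 14 and 10 in restricted females and 3 and 54 in restricted males, so the balance between directions moved with the scaling. Counts under these alternatives stand without the share over all targets tested, so they are not read as particular to the members.

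Whether the effect of restriction differed between the sexes was tested as the difference of both effects. No member passed an adjusted p under 0.05 in limma (smallest adjusted p = 0.999), and at an unadjusted p under 0.05 the effect was higher in females for 5 members and lower for 12 (2.13%, where all targets tested gave 2.72%, 1.48% higher and 1.24% lower). Leaving out 1 animal gave 18 higher without control 3, 14 without restricted animal 2, 10 without restricted animal 4, 8 without restricted animal 6, and 3 without control 4, 5 or 6 or restricted animal 1. It gave 21 lower without control 3, 7 without control 4 or 6, 5 without restricted animal 1 or 3, and 3 without control 5. The balance between directions moved with the scaling. Equal medians gave 0 higher and 25 lower. The authors' processed values gave 11 higher and 3 lower. The interval of the difference of effects lay within 2-fold for 554 members (69.4%), and reached past 2-fold in at least 1 direction for the others.

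Female and male fetuses were also compared, each sex taken over both conditions. No member passed an adjusted p under 0.05 in limma, where 6 of all targets tested did, 0.0453% of them. At an unadjusted p under 0.05, 8 members were higher and 8 lower in females (2.01%, where all targets tested gave 3.27%, 1.46% higher and 1.8% lower). Leaving out 1 animal gave 15 higher without restricted animal 4 and 14 without restricted animal 2. It gave 19 lower without restricted animal 2, 13 without restricted animal 5, 5 without restricted animal 3 and 4 without control 2. The 95% interval lay within 2-fold for 785 members (98.4%) and within 1.5-fold for 647 (81.1%).

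GI_34452687-A had the smallest p among members higher in females. Its log2 level was 9.70, 9.79 and 9.80 in restricted females and 9.19, 9.34 and 9.32 in control females, against 9.0, 9.10 and 9.52 in restricted males and 9.01, 8.86 and 8.75 in control males. Females averaged 9.52 ± 0.27 and males 9.04 ± 0.27 (mean ± SD, n = 6 each, difference 0.48, SE 0.11, limma adjusted p = 1). The 3 restricted females were above every male, and the control females lay below the highest of them, restricted male 4.

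GI_34304371-A had the smallest p among members lower in females. It measured 7.32, 7.12 and 7.14 in restricted females and 7.91, 7.86 and 8.17 in control females, against 8.09, 8.15 and 7.86 in restricted males and 7.60, 8.07 and 8.11 in control males. The low values were those of the 3 restricted females, and the other 9 animals lay between 7.60 and 8.17. Restricted minus control was -0.79 (SE 0.17) in females, with a limma adjusted p of 0.404, and 0.11 (SE 0.17) in males. The difference of both effects was -0.90 (95% interval -1.43 to -0.36), with a limma adjusted p of 0.999.

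**Figure D5:**
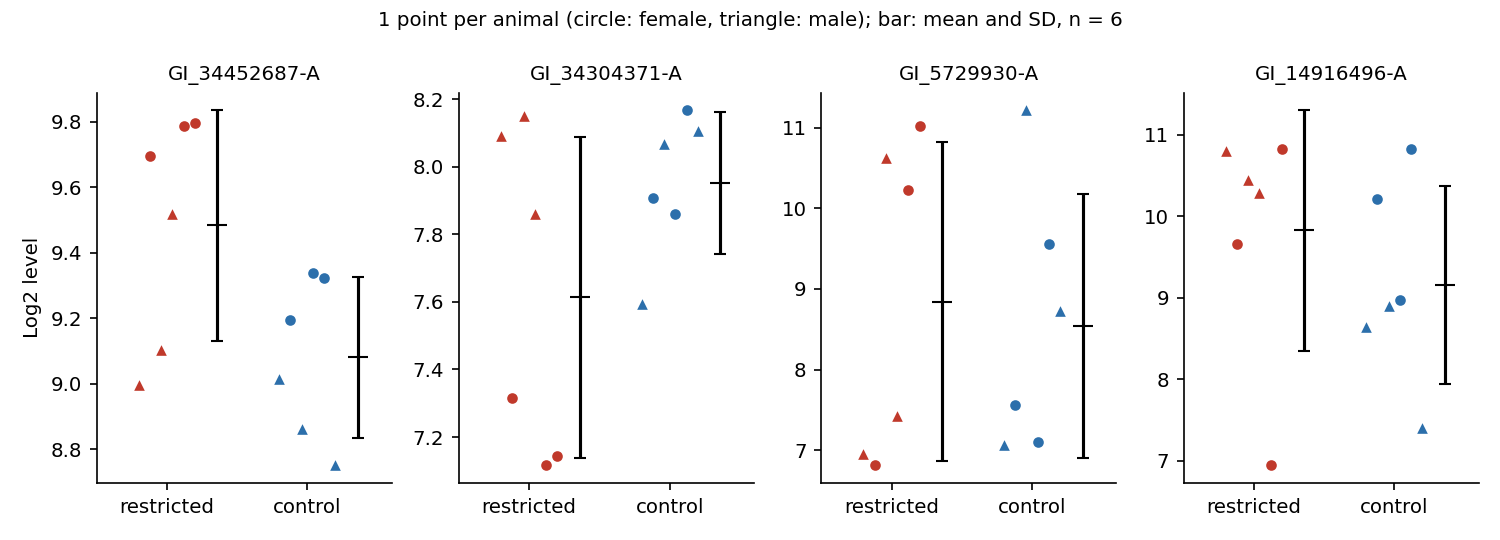
Log2 level of the 2 members with the smallest p between the sexes (GI_34452687-A and GI_34304371-A) and of the 2 with the largest within-group SD (GI_5729930-A and GI_14916496-A), 1 point per animal (circles female, triangles male), nutrient restricted in red on the left and control in blue; bars give the mean and SD (n = 6). Restricted females form the upper end of the first panel and the lower end of the second, and in the last 2 panels both groups span several log2 units.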

How the data were processed

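Signals and detection p-values came from a deposited scanner table made with GenomeStudio 1.9.0, per the submitters' processing notes. Per the file headers it holds the average bead signal of each target, a non-normalised intensity, and a deposited detection p-value. The sources used here do not say whether a background was subtracted. Per the labels' protocols, Trizol extraction was followed by RNeasy clean-up and biotin labelling of the cRNA. The authors' processed values, deposited separately, lie on a log2 scale with array medians at about 0. Their unit was found from the values, which equal log2 of the signal less a constant, divided by a constant of each array. Of 22148 such rows 16581 matched 1 scanner row within 0.01, all 798 members among them.

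Signals were corrected and quantile normalised with neqc (offset 16) of limma 3.58.1 in R 4.3.3. Targets detected (p under 0.05) on 6 or more of the 12 arrays were fitted with lmFit and eBayes, taking the brighter row of 7 identifiers that stood on 2 rows. No member was among these 7. Benjamini-Hochberg adjustment ran over all 13244 targets. Conditions were compared without covariates, and sexes and conditions within sex in a fit of 4 group means. The members and the choice of tests were made with earlier results of these data known. Members were named by the smallest unadjusted p between conditions (2 per direction, since none passed the threshold) or sexes (1 per direction), the highest level (2) and the largest spread (2). Gene lists and cell type markers were not tested, because identifiers came without gene names in the files used here. The fits were checked on simulated data with known changes. Alternatives changed background correction, scaling, filter, weights, covariates and animals, or used the authors' values. Summaries used Python 3.11.15 with pandas 2.3.3, numpy 2.4.6 and scipy 1.17.1, and plots matplotlib 3.10.9.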

Additional observations from a re-analysis of the deposited data

Results flagged for a closer look

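Of 32 sets of 6 values examined (detection, signal, deviations and component scores of the members, and the levels of the 10 named members, in each group), 2 held an animal whose gap to its nearest neighbour was large against the range of its group. Chance gives about 5% of independent sets, or 1.6 sets. Restricted animal 3 had a score of 8.46 on the first principal component of the members, against -2.68 to 1.36 in the other 5 restricted animals. Controls 3 and 5 had scores of 6.25 and 5.40 on the same component. GI_14916496-A had a log2 level of 6.94 in restricted animal 5, against 9.66 to 10.82 in the others of its group. This target was chosen for its large spread, and a control animal, number 6, also measured 7.40.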

How the results depend on the processing

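At an adjusted p under 0.05 no member passed in any of the 5 comparisons under any alternative run, and the lowest adjusted p of a member between the conditions was 0.119. The 4 members named between the conditions kept their direction in all 84 combinations of member and alternative, with adjusted p between 0.119 and 0.761. Unadjusted counts moved, and the cause was not tested unless the alternative itself gives it. Here and above, counts under an alternative stand without the share over all targets tested under it. They are therefore not read as a result particular to the members. Equal array medians gave 8 higher and 81 lower between the conditions, 12 lower in males, 4 higher and 97 lower in females, 0 and 25 for the difference of effects, and 3 higher in females than males. On the authors' processed values they were 12 and 81 between the conditions, 3 and 54 in males, 14 and 10 in females, 11 and 3 for the difference of effects, and 4 higher in females than males. Without a detection filter, which changes the targets that share the variance estimate, they were 68 lower between the conditions, 26 higher in males, 36 lower in females, 10 higher for the difference of effects, and 17 and 17 between the sexes. With array weights they were 32 higher in males, 40 lower in females, 9 higher for the difference of effects, and 23 and 22 between the sexes. Leaving out 1 animal gave 22 to 63 higher and 31 to 63 lower between the conditions, 7 to 38 and 7 to 51 in males, 15 to 43 and 9 to 46 in females, 3 to 18 and 3 to 21 for the difference of effects, and 6 to 15 and 4 to 19 between the sexes. The rule with a detection p under 0.001 would leave 357 members and that with 0.05 would give 1046, and leaving out 1 animal gave 798 to 836.

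The labels number the animals 1 to 6 in each group, but do not say that a number marks a shared source. The deviations of same-numbered animals correlated between -0.22 and 0.58 over the tested targets and between -0.21 and 0.74 over the members. Over the tested targets, 2 of the 6 restricted animals correlated best with the control of their own number. With a replicate block in the fit, the unadjusted counts were 48 higher and 52 lower between the conditions and 7 and 7 between the sexes, with 0 past an adjusted p under 0.05. Only numbers 4 and 6 paired a female with a male, so the sex comparison with a block rests on these animals. Array signal over background limits dim members, and whether their differences are compressed on this scale was not tested.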
